A study of Rattus norvegicus with 2 samples.

Results

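The genes described here are those of the rat major histocompatibility complex (MHC, named RT1 in the rat) together with 6 genes of antigen processing. Their signal was measured in skeletal muscle of diabetic rats in a study of electroacupuncture. The genes were chosen by symbol. Every gene whose name begins with RT1- was taken, and B2m, Tap1, Tap2, Tapbp, Cd74 and Ciita were added, which gave 41 of the 13337 genes with a named probe. Of these 41 genes, 27 are class I genes, 8 are class II genes and 6 are the added processing genes, and each was read by 1 probe. The study comprised 2 samples with 1 Illumina bead array each, a 1-colour array in which each probe measures a transcript. One sample was labelled EA (electroacupuncture) and the other Mock. Both samples were from Wistar males of 8 to 10 weeks whose diabetes was induced with streptozotocin (STZ), a toxin of insulin-producing beta cells. The protocol text describes needles at the ST36 (Zusanli) point of the lower leg, with 5 min of needling and then 60 min of current at 15 Hz and 10 mA. That text is attached to both samples and does not say what was done to the Mock animals. The muscle, the time of sampling and the number of animals behind each sample are not stated either.

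MHC class I molecules are displayed on most nucleated cells and present peptides from inside the cell to CD8 T cells. They consist of a heavy chain, encoded by the class I genes, and beta-2 microglobulin. Their peptides are cut by the proteasome, pumped into the endoplasmic reticulum by the transporter TAP and loaded with the help of tapasin. Class II molecules are pairs of an alpha and a beta chain, are made mainly by macrophages, dendritic cells and B cells, and present peptides from endosomes to CD4 T cells. Resting muscle fibres are known for low class I and little or no class II expression. Both classes are induced by interferon gamma, class I through the coactivator NLRC5 and class II through CIITA. Wistar is an outbred stock, the RT1 class I genes differ in number and sequence between haplotypes, and the sources used here do not give the haplotypes behind these samples.

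The promoters of the genes that carry the results are shown to let the classes be compared at the sequence level. They run from 250 bases before to 50 bases after the annotated start and come from RefSeq, build GRCr8, in which 36 of the 41 genes had an entry. Capitals mark 5 motifs, searched on both strands, that are known from MHC promoters. They were an NF-kB site (GGGATTCCC), an interferon-stimulated response element or ISRE (GAANNGAAA), the X1 core (GCAACAG), the X2 core (TGACG) and the Y box (CCAAT). The X2 core can overlap itself on the opposite strand, as it does in RT1-Ba. The first 3 sequences belong to the RT1-A genes, the classical class I genes, on the plus strand at chr20:4906959-4907258, chr20:4872621-4872920 and chr20:4849201-4849500.
RT1-A1: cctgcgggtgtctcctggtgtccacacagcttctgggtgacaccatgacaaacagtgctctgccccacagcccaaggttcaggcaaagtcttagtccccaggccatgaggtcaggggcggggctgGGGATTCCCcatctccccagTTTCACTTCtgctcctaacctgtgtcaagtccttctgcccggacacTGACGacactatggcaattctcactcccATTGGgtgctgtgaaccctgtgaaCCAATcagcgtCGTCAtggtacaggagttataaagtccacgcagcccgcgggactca
RT1-A2: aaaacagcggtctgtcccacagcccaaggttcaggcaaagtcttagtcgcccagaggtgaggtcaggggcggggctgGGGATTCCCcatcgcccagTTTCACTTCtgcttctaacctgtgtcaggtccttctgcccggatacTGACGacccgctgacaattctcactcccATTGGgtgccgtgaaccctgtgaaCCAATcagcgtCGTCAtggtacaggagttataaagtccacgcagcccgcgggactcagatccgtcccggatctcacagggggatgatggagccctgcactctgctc
RT1-A3: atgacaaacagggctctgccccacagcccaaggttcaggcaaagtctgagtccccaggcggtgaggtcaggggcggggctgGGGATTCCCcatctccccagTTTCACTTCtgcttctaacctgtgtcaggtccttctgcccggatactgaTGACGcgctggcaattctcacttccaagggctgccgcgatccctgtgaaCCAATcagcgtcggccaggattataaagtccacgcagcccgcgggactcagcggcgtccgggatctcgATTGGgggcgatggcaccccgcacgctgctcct
The next pair are RT1-M6-2 and RT1-T24-4, the other class I genes that passed 2-fold, on the plus strand at chr20:1588283-1588582 and chr20:2689083-2689382.
RT1-M6-2: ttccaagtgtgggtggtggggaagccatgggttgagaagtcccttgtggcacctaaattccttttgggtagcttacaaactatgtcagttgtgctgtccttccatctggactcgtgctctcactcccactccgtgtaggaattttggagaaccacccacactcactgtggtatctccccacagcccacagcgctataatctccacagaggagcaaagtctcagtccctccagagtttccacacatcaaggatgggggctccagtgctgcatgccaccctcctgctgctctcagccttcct
RT1-T24-4: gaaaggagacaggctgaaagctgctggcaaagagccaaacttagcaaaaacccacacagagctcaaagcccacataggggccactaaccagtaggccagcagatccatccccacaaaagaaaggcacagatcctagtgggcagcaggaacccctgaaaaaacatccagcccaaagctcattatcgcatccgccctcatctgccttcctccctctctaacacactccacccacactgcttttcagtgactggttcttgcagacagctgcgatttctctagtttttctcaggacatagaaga
The last 3 are B2m, the partner chain of class I, and the class II alpha chain genes RT1-Ba and RT1-Da, on the plus strand at chr3:129549080-129549379, chr20:4576807-4577106 and chr20:4515165-4515464.
B2m: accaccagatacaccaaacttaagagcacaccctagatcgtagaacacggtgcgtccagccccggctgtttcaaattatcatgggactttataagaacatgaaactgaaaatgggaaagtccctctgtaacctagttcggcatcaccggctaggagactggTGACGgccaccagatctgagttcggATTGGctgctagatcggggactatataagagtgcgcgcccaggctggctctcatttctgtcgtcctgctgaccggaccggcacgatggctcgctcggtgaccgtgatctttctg
RT1-Ba: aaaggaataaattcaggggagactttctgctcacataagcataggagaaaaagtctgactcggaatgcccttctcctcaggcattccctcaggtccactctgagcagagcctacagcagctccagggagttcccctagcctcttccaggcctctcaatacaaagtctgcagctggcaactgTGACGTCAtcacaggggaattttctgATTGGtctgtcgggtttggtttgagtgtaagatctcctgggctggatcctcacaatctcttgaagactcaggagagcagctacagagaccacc
RT1-Da: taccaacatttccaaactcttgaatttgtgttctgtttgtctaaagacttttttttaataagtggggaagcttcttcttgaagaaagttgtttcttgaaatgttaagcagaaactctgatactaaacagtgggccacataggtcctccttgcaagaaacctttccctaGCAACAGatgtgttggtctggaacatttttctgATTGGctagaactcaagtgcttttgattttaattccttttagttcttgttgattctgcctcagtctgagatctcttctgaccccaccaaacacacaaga
The RT1-A promoters were close copies of each other. Over the aligned stretch, RT1-A2 was 92.9% identical to RT1-A1 and 87.1% identical to RT1-A3, and RT1-A1 was 89.8% identical to RT1-A3.

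Motif matches were counted in each class. The NF-kB site stood in 7 of 24 class I promoters (RT1-A1, RT1-A2, RT1-A3 and 4 RT1-CE genes) and in 0 of 7 class II promoters, against 0.350% of the 27457 rat promoters in the table. The ISRE letters stood in 10 of 24 class I and in 0 of 7 class II promoters, against 8.43% of all. Among the processing genes they stood in Cd74, Tap2 and Tapbp. In 7 promoters a count of 0 is near the general share for both motifs, so it sets no difference between the classes. The RT1-A promoters are close copies, so their matches are not separate observations. Identity among the RT1-CE promoters was not computed, so their matches may not be separate either. The Y box was found in 16 of 24 class I promoters and in 7 of 7 class II promoters, against 37.7% of all. The X2 core was found in 7 class I promoters, in RT1-Ba and in B2m (22.0% of all), and the X1 core in 1 class I promoter and in RT1-Da and RT1-Ha (5.02% of all). In the windows of RT1-M6-2 and RT1-T24-4 none of the 5 motifs was found. These are matches of letters in the reference genome and not measured binding. Only the exact letters were counted, so other forms of the same elements would be missed. The B2m window, for example, holds GAAACTGAAA, which has 1 more base than the ISRE letters searched. A motif not found here is therefore not shown to be absent.

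Not every gene gave a measurable signal. Each probe comes with a detection p-value, which sets its signal against the negative controls of the array, and a gene counted as detected when it was under 0.01. By that rule 9 of the 27 class I genes were detected on both arrays (33.3%, against 37.8% of all genes), 1 on the EA array alone and 17 on neither. Of the 8 class II genes 5 were detected on both arrays and 3 on neither. Of the 6 processing genes 4 were detected on both arrays, 1 on the EA array alone and 1 on neither. In all, 18 of the 41 genes were detected on both arrays (43.9%), against 37.8% of all genes. On neither array were 21 of the 41 genes detected, against 7696 of all 13337. Detection on the EA array alone was seen for 2 of the 41 genes and on the Mock array alone for 0, against 3.09% and 1.36% of all genes. The 21 genes detected on neither array had EA intensities between 103 and 158 and Mock intensities between 92.7 and 137. A detected probe had an intensity of at least 160.3 (EA) or 154 (Mock), so the data set no level for those genes beyond a signal under that floor.

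**Figure D1:**
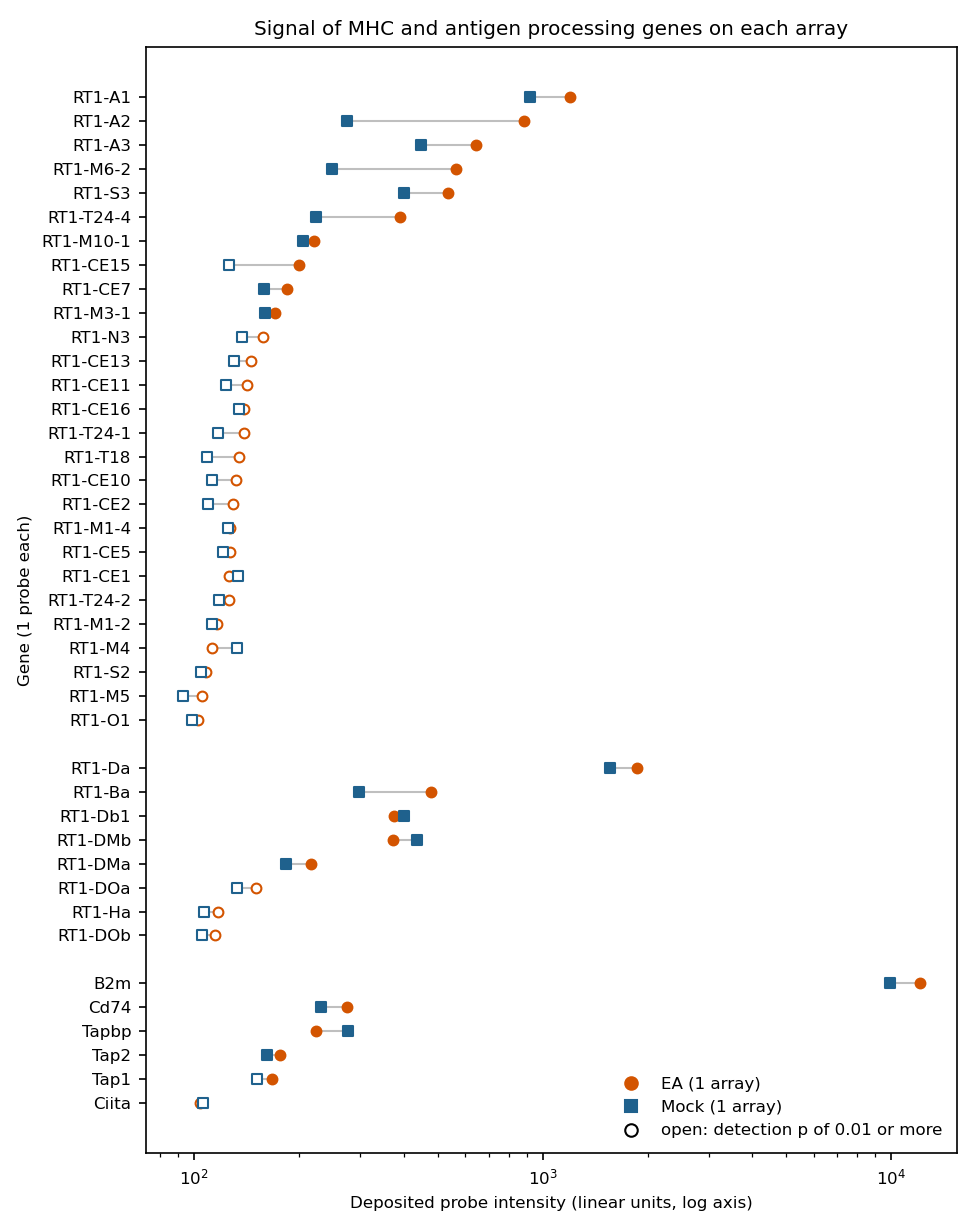
Deposited probe intensity (linear units on a log axis) of the 41 genes on the EA array (circles) and the Mock array (squares), 1 probe and 1 array each. Filled symbols were detected, and the widest gaps between filled symbols are those of RT1-A2 (883 on the EA array, 275 on the Mock array) and RT1-M6-2 (565 on the EA array, 248 on the Mock array).

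Differences below are given as EA minus Mock on the log2 scale, after background correction and quantile normalization. With 1 array per group none has an error or a test, and the stimulation and any other way in which the samples differ, the animals included, cannot be told apart. In a bulk tissue, fewer cells of a type and less RNA per cell cannot be told apart either. The only internal measure of scatter came from 60 pairs of probes for other genes, in which the difference scattered with an SD of 0.25 per probe. None of the 41 genes had a second probe. If that scatter is normal, 95% of single probes would lie within 0.48 of their gene's value. The pairs were read on the same arrays, so this scatter leaves out variation between animals, samples and arrays.

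Among the class I genes detected on both arrays, 3 of 9 were higher on the EA array by 2-fold or more and 0 were lower by that much. Over the 5047 genes that both arrays detected, the shares were 2.08% higher and 0.456% lower. RT1-A2, a classical class I heavy chain gene, had an intensity of 883 on the EA array, against 275 on the Mock array, with a detection p-value of 0 on both. It was 4.26-fold higher on the EA array (log2 difference 2.09), which placed it 18th from the top among the 5047 genes. With the authors' deposited values the fold was 2.87, from 1312 on the EA array, against 458 on the Mock array. RT1-A2 thus stayed above 2-fold on both sets of values.

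RT1-M6-2, a class I gene of the RT1-M region, had an intensity of 565 on the EA array, against 248 on the Mock array. The log2 difference was 1.56, or 2.94-fold, at place 37 from the top, and the deposited values gave 2.09-fold. RT1-T24-4, whose synonym in the RefSeq table is the mouse gene name H2-T24, had an intensity of 391 on the EA array, against 223 on the Mock array. It was 2.13-fold higher on the EA array (1.09) but only 1.62-fold higher without background correction, and the deposited values gave 1.63-fold, so its place past 2-fold depends on the processing. All 3 genes had a mean log2 signal between 7 and 9, where 3.1% of all genes were higher by 2-fold or more.

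The other classical genes differed far less than RT1-A2. RT1-A1 had an intensity of 1202 on the EA array, against 923 on the Mock array, a log2 difference of 0.39. RT1-A3 had 643 on the EA array, against 449 on the Mock array, a difference of 0.53. Both lay in the same direction as RT1-A2 under each normalization tried, with ranges of 0.21 to 0.41 for RT1-A1 and 0.42 to 0.62 for RT1-A3, against 1.52 to 2.16 for RT1-A2. The 3 genes are neighbours among the RT1 genes of chromosome 20 and close paralogs, so their probes may share transcripts, and which copies each probe reads was not tested.

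The remaining class I genes detected on both arrays are non-classical. RT1-S3, the counterpart of the mouse gene H2-T23 whose product is a ligand of NKG2 receptors, had an intensity of 535 on the EA array, against 400.1 on the Mock array, a difference of 0.43. RT1-CE7 had 185 on the EA array, against 159 on the Mock array, a difference of 0.27. RT1-M3-1 is the counterpart of mouse H2-M3, which presents formylated bacterial peptides. Its intensity was 170.2 on the EA array, against 159.9 on the Mock array, and the difference was -0.05. RT1-M10-1, annotated as a long non-coding RNA in the RefSeq table, had 221 on the EA array, against 205 on the Mock array, a difference of -0.04. The signs of these last 2 turned positive, to 0.12 and 0.14, when the arrays were scaled to the 75th percentile of the detected probes.

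RT1-CE15 was the class I gene detected on the EA array alone. Its intensity was 200.5 on the EA array (detection p-value 0.00121), against 126 on the Mock array (0.23). Set against the lowest detected signal of the Mock array, it was at least 1.58-fold higher in the EA sample, a bound that was 1.20-fold without background correction. Of the 9 RT1-CE genes with a probe, 7 were detected on neither array. The same held for 4 of 7 RT1-M genes, 2 of 3 RT1-T24 genes, 1 of 2 RT1-S genes, and for RT1-N3, RT1-O1 and RT1-T18. Over all genes it held for 7696 of 13337. A further 11 protein-coding RT1 genes of the RefSeq table had no named probe here and were not analysed, among them the class II beta chain genes RT1-Bb and RT1-Db2.

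**Figure D2:**
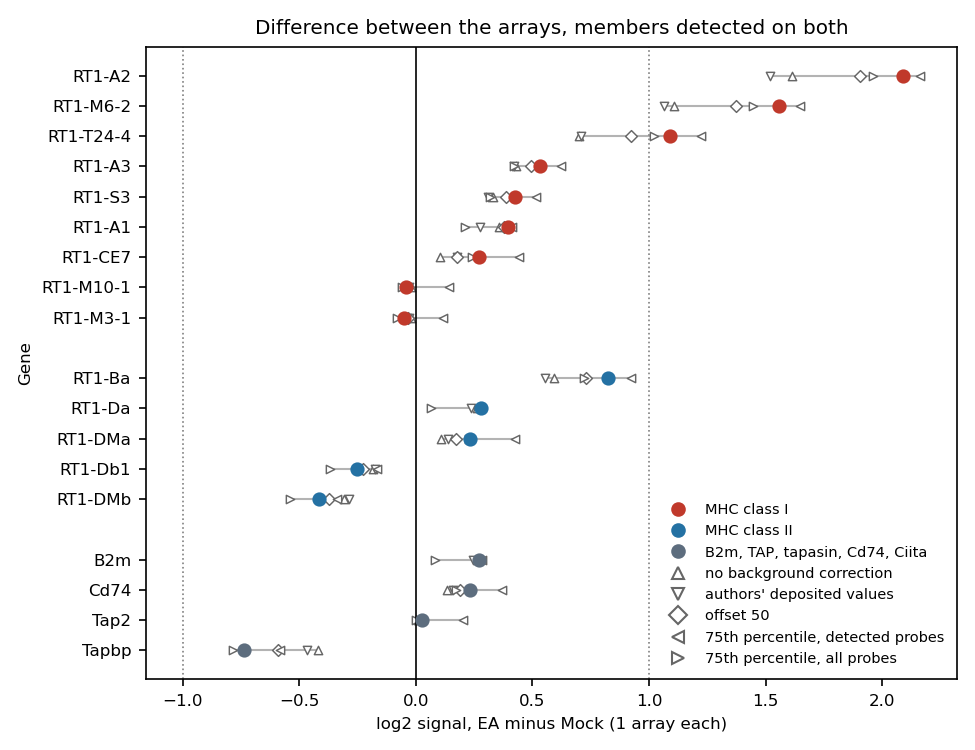
Difference in log2 signal, EA minus Mock, for the 18 genes detected on both arrays. Filled circles are the values of the text, open symbols the same difference under 5 other normalizations, and dotted lines mark 2-fold. RT1-A2 and RT1-M6-2 lie beyond 2-fold under each of them, RT1-T24-4 does not, and Tapbp is the lowest.

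Among the class II genes detected on both arrays, 0 of 5 were 2-fold different in either direction, against 2.54% of all genes, and 1 was higher by at least 1.5-fold, as were 6.26% of all genes. That gene was RT1-Ba, the alpha chain of RT1.B, with an intensity of 478 on the EA array, against 297 on the Mock array. Its log2 difference was 0.83, or 1.77-fold, at place 159 from the top, and it ranged from 0.56 to 0.92 over the normalizations. The partner beta chain gene, RT1-Bb, was not analysed here. RT1-Da, the alpha chain of RT1.D, had an intensity of 1868 on the EA array, against 1563 on the Mock array, a difference of 0.28. Its partner RT1-Db1, a beta chain, lay the other way, with 374 on the EA array, against 401 on the Mock array, a difference of -0.25.

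The same opposition was seen in DM, the class II-like molecule that exchanges the invariant chain fragment for peptide. RT1-DMa, the alpha chain, had an intensity of 217 on the EA array, against 183 on the Mock array, a difference of 0.23. RT1-DMb, the beta chain, had 371 on the EA array, against 435 on the Mock array, a difference of -0.41. Thus the 3 detected alpha chain genes were positive and both detected beta chain genes negative under each of the 6 normalizations, a grouping noticed after the values were seen. Apart from RT1-Ba these values lie within 0.48, though RT1-DMb reached -0.54 with scaling to the 75th percentile of all probes. RT1-DOa and RT1-DOb, whose product restrains DM and is found mainly in B cells, and RT1-Ha, of the DP-like pair, were detected on neither array.

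Class I and class II were then set side by side. The median log2 difference was 0.43 over the 9 class I genes and 0.23 over the 5 class II genes, against -0.06 over all 5047 genes. Above 0 lay 7 of the 9 class I genes and 3 of the 5 class II genes, against 41.2% of all genes. The gap between the 2 medians was 0.19. With 1 array per group it has no error and was not tested. Without the 3 genes past 2-fold, a setting chosen after the data were seen, the class I median was 0.33. With RT1-CE15 at its lower bound the class I median was 0.48. The highest difference was 2.09 in class I and 0.83 in class II, and the lowest was -0.05 in class I and -0.41 in class II. The summed intensity of the detected genes was 4794 on the EA array, against 3042 on the Mock array for class I, and 3308 on the EA array, against 2880 on the Mock array for class II. These genes entered because they were detected, so the medians describe them and not all 27 and 8.

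**Figure D3:**
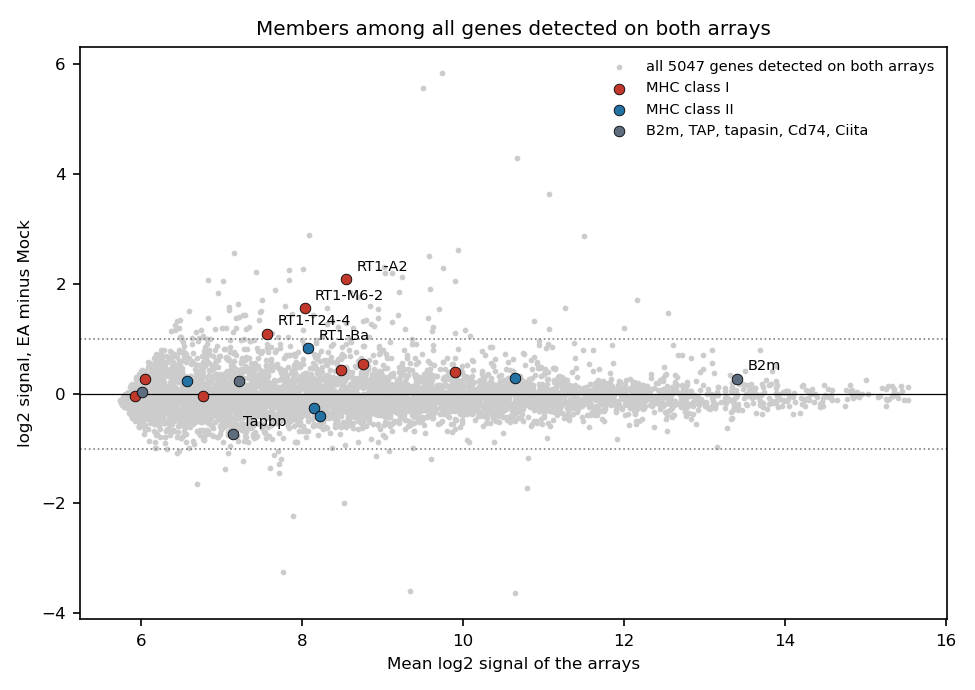
Difference in log2 signal, EA minus Mock, against the mean log2 signal of the arrays, for the 5047 genes detected on both arrays (grey) and the 18 MHC and processing genes (coloured). RT1-A2, RT1-M6-2 and RT1-T24-4 lie above the dotted 2-fold line, and the class II genes lie between -0.41 and 0.83.

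The machinery that class I genes depend on did not share the size of the RT1-A2 difference. B2m, which encodes beta-2 microglobulin, had an intensity of 12111 on the EA array, against 9942 on the Mock array, a difference of 0.27, or 1.21-fold. Tap1 and Tap2 encode the subunits of the peptide transporter. Tap2 had an intensity of 176 on the EA array, against 162 on the Mock array, a difference of 0.03. Tap1 had 167 on the EA array (detection p-value 0.00848), against 151 on the Mock array (0.0158), which gives a bound of at least 1.02-fold higher. Both transporter genes thus lay at the detection floor.

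Tapbp, which encodes tapasin, the bridge between TAP and class I, was the lowest of the 18 genes. Its intensity was 223 on the EA array, against 276 on the Mock array, a log2 difference of -0.74, or 1.66-fold lower on the EA array, at place 4957 of 5047 from the top. At least 1.5-fold lower were 3.86% of all genes. The size depended on the background correction, at -0.42 without it, while the deposited values gave -0.47, and its sign stayed negative under each normalization. Cd74, the invariant chain that escorts class II molecules, had an intensity of 275 on the EA array, against 232 on the Mock array, a difference of 0.23. Ciita, the class II coactivator, had 104 on the EA array (detection p-value 0.933), against 106 on the Mock array (0.833) and was not detected on either.

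**Figure D4:**
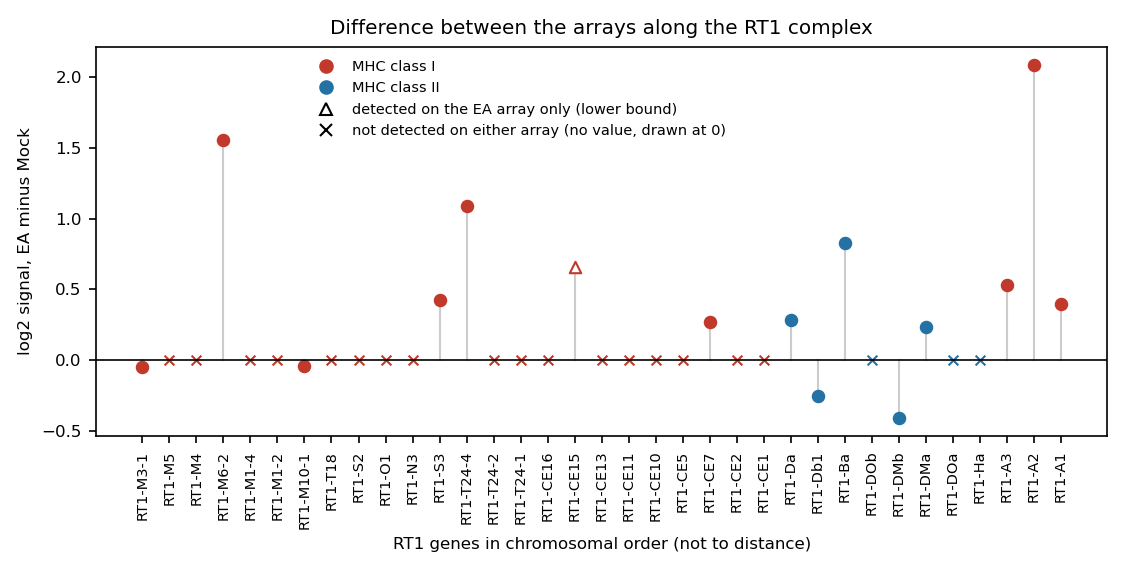
Difference in log2 signal, EA minus Mock, for the 35 RT1 genes with a probe, in their order along chromosome 20 of GRCr8 (not to distance). Filled circles were detected on both arrays, the open triangle is the lower bound of RT1-CE15, and crosses mark genes detected on neither array. The 3 genes past 2-fold lie apart from each other, and RT1-A2 stands between RT1-A3 and RT1-A1, at 0.53 and 0.39.

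Among the genes with a probe, the 3 class I genes past 2-fold were not neighbours along the complex. RT1-M6-2 stood between RT1-M4 and RT1-M1-4, both of which were detected on neither array. RT1-T24-4 stood between RT1-S3, at 0.43, and RT1-T24-2, which was not detected. RT1-A2 stood between RT1-A3 and RT1-A1, beyond the class II segment. Of these 3 genes the motifs were found in RT1-A2 alone. RT1-A1 and RT1-A3, which hold the NF-kB site and the ISRE letters too, differed by 0.39 and 0.53. Whether the motifs have a part in any of these differences was not tested.

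Of 11 genes that supply class I with peptide and had a probe, 9 were detected on both arrays, with a median of 0.00 against -0.06 over all genes. None of the 9 was 1.5-fold different, where 6.26% of all genes were higher and 3.86% lower by that much, so a count of 0 is near the general share. Calr, which encodes the chaperone calreticulin, differed by -0.38, Psme1, a proteasome activator subunit, by 0.00 and Hspa5, the chaperone BiP, by 0.15. Psmb8, an immunoproteasome subunit named here after its value was seen, differed by 0.27, and Psmb9, another, was detected on neither array.

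Of 13 genes of class II peptide supply and regulation with a probe, 9 were detected on both arrays, with a median of 0.12. Nfyb, a subunit of the factor that binds the Y box, was the 1 gene past 1.5-fold (6.26% of all genes were higher by that much), at 1.03, but 0.48 without background correction, while the deposited values gave 0.64. Its intensity was 244 on the EA array, against 161 on the Mock array, near the detection floor of the Mock array. The endosomal protease genes Ctsl, Ctsb and Ctsd differed by 0.44, 0.10 and -0.33. The genes for the class II promoter factors Rfx5 and Rfxap were detected on neither array.

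Interferon signalling and its targets had 10 of 24 genes detected on both arrays, against 37.8% of all genes. Irf9 was detected on the EA array alone, as were 3.09% of all genes. The median of the 10 genes was 0.03 (0.21 with scaling to the 75th percentile of detected probes). They ranged from -0.47 for Ifit1 to 0.83 for Cxcl9. Higher on the EA array by 1.5-fold or more were 2 of them, against 6.26% of all genes, and 0 were lower by that much. Cxcl9, a chemokine induced by interferon gamma, had an intensity of 397 on the EA array, against 253 on the Mock array, a difference of 0.83. Jak1, a kinase of the interferon receptors, differed by 0.64, Jak2 by 0.39 and the receptor gene Ifngr2 by -0.20. Neither Cxcl9 nor Jak1 reached 1.5-fold in the deposited values, at 0.54 and 0.50, or without background correction, at 0.55 each. Irf1, a factor that binds the ISRE and is named here after its value was seen, differed by -0.19. Neither Cxcl10 nor Isg15, both typical interferon targets, was detected on either array, and Nlrc5 had no named probe here.

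Markers of cells that carry MHC molecules differed between the arrays for some genes and not for others. Of 11 macrophage and monocyte markers with a probe, 4 were detected on both arrays, against 37.8% of all genes. Their summed intensity was 1951 on the EA array, against 1398 on the Mock array. The complement genes C1qc and C1qb differed by 0.98 and 0.90, but C1qa by 0.01 and Aif1 by 0.03. Without background correction C1qc and C1qb differed by 0.72 and 0.70, and in the deposited values by 0.68 and 0.67. Ptprc, Itgam and Adgre1 were detected on neither array. Mrc1 and Cd14 were detected on the EA array alone, as were 3.09% of all genes. Of 9 dendritic cell markers 2 were detected, with a summed intensity of 654 on the EA array, against 337 on the Mock array. They were Cd83, an activation marker, at 2.21 and Ccr7 at -0.25, while Flt3, Xcr1 and Clec9a were not detected. Cd83 differed by 1.37 without background correction and by 1.43 in the deposited values. The gap in that sum came from Cd83 (492 on the EA array, 176 on the Mock array), since Ccr7 had 162 and 160. Of 5 B cell markers and of 11 T and NK cell markers, 0 were detected. Of all 13337 genes, 7696 were detected on neither array, and a marker not detected does not show that its cells are absent.

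Endothelial cells, which also carry class I molecules, were marked by 8 genes with a probe. Of these 6 were detected, 3 of them higher by 2-fold or more (2.08% of all genes were), with a median of 0.59 and a summed intensity of 2345 on the EA array, against 1414 on the Mock array. Sox17 differed by 1.48, Cldn5 by 1.17 and Esam by 1.00, while Vwf, Tie1 and Egfl7 differed by 0.19, 0.13 and -0.30, and Cdh5 and Tek were not detected. In the deposited values none of the 3 reached 2-fold, at 0.96 for Sox17, 0.92 for Cldn5 and 0.64 for Esam, and without background correction Cldn5 alone did, at 1.00. Erythrocyte markers summed to 33349 on the EA array, against 20465 on the Mock array over 5 of 7 genes, with Hbb-b1 at 0.89, Hba-a1 at 0.79 and Hbb at 0.70, but Ahsp at -0.15 and Gypc at -0.23. For the muscle label, 8 of 8 fibre markers were detected, with a median of 0.01. Among them Myh4 differed by 0.70, Myh2 by -0.99, Acta1 by 0.15, Tnnc2 by 0.06 and Actn3 by -0.04. The part of these cell types in the MHC values was not tested.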

How the data were processed

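RNA of 2 samples, EA and Mock, was hybridised to Illumina rat arrays, 1 array each. For 22523 probes the deposited non-normalized table gives a linear intensity and, as named per the file headers, a p-value of detection. The EA array detected 7235 of them and the Mock array 6918. The values were not background-subtracted (lowest 64.4 for EA and 65.6 for Mock), and the sources used here do not give the scanner software. A second deposited table holds intensity values that the authors normalized by a method not stated (medians 137.5 for EA and 137.3 for Mock), with a scale taken as linear, and served as an alternative.

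The nec function of limma corrected the background from the detection p-values, with an offset of 16, followed by quantile normalization and log2 (R 4.3.3, limma 3.58.1, tested on simulated data; Python 3.11.15, pandas 2.3.3, numpy 2.4.6, matplotlib 3.10.9, Biopython 1.88). Gene names came from GEO's platform annotation and were updated against RefSeq by gene identifier, which changed no name among the 41. A gene with several probes took its brightest. For a gene detected on 1 array, a lower bound divided its signal there by the lowest detected signal of the other array, or by the gene's own signal there if higher. With 1 array per group no test was run, and precision is limited by the number of arrays. The genes and lists were chosen with earlier results of these data known. All 41 genes were named or counted. From each other list the genes at least 1.5-fold different were named, and also the 3 with the highest signal where fewer than 3 were.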

Additional observations from a re-analysis of the deposited data

How the results depend on the processing

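The class I median ranged from 0.24, with undetected probes included, to 0.52, with the arrays scaled to the 75th percentile of the detected probes, and the class II median from 0.07 to 0.27. The gap between them ranged from 0.09 to 0.25. The number of genes at least 2-fold different was 3. It was 2 without background correction, with the deposited values and with an offset of 50, and 4 with undetected probes included. A detection p-value threshold of 0.05 left it at 3. A mean over probes could not change it, because each of the 41 genes has 1 probe. Of all 5047 genes, 105 were higher and 23 lower by 2-fold or more. Leaving out the background correction gave 53 and 8, the deposited values 47 and 7, an offset of 50 gave 75 and 16, and the 75th percentile of detected probes 129 and 16. Scaling to the 75th percentile of all probes, added after the data were seen, moved the median gene by -0.14 and gave 91 and 36, or 71.7% higher in place of 82.0%. None of the 18 genes changed its side of the median gene under the 5 other normalizations. Both scalings to the 75th percentile give the same values relative to the median gene, so they are not separate checks here. For single genes, 9 of 144 recomputed values moved by more than the probe SD of 0.25, all toward 0. They belonged to RT1-A2, RT1-M6-2, RT1-T24-4, RT1-Ba and Tapbp, without background correction or with the deposited values. The cause of these moves was not tested. The 144 values include settings that cannot move a single gene, namely the mean over probes, the 0.05 threshold and the inclusion of undetected probes. The share that moved is thus higher among the settings that could move a gene. No paired analysis was possible because each group has 1 array, and for the same reason no array could be left out. Signals near the detection floor, as for Tap1, Tap2, RT1-CE7 and RT1-M3-1, limit what can be said of those genes.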
